A study of Mus musculus with 30 samples.

Results

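Lipid droplet coat proteins and the enzymes of intracellular lipolysis were examined through 10 genes in mouse liver: the perilipins Plin2, Plin3, Plin4 and Plin5, the Cide genes Cidea, Cideb and Cidec, the lipases Pnpla2 and Mgll, and the lipase inhibitor G0s2. Members were all probe sets annotated to these genes, which gave 15 of the 45101 probe sets on the Affymetrix Mouse430_2 array. After a filter on weak signal, 11 of the 15 probe sets and 7 of the 10 genes were tested, among 24069 probe sets and 12156 genes in all. Plin4, Cidea and Cidec did not pass, since their probe sets lay above the median of all values (5.65 on the log2 scale) in 2, 0 and 3 of the 30 arrays, and they are given from a fit without that filter.

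Liver RNA came from male mice, 6 to 9 months old, given 7 daily doses of perfluorooctane sulfonate (PFOS, potassium salt), a persistent fluorinated surfactant. PPARα-null mice (Null, strain 129S4/SvJae-Pparatm1Gonz/J) and wild-type mice (WT, strain 129S1/SvlmJ) received 0, 3 or 10 mg/kg by gavage, with 5 arrays in each of the 6 groups. All groups, the 0 mg/kg controls included, received the vehicle, 0.5% Tween 20. The Null mice lack PPARα in every tissue, so hepatocytes and other cells are affected together, and the genotypes are also different substrains, so that substrain and receptor cannot be told apart in any comparison of Null with WT. Fewer cells of a type and less RNA per cell cannot be told apart in these whole-tissue samples. Values are log2 intensities after robust multi-array averaging (RMA), so a difference of 1 is a doubling of signal, and levels of different probe sets are not set against each other.

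Neutral lipid in hepatocytes is stored in droplets that have a triglyceride core and a phospholipid surface coated with proteins. Perilipins sit on that surface and regulate the access of lipases, while Cide proteins promote the growth and fusion of droplets. Lipolysis proceeds stepwise: adipose triglyceride lipase (Pnpla2) removes the first fatty acid and monoacylglycerol lipase (Mgll) removes the last, with G0s2 as a protein inhibitor of Pnpla2. PPARα is a nuclear receptor that is activated by fatty acids and binds DNA with RXR at a direct repeat of the half-site AGGTCA spaced by a single base, and its targets are known to include genes of lipid uptake, storage and oxidation. The comparisons ask how droplet and lipase transcripts responded to PFOS in each genotype and whether those responses differed between Null and WT.

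Promoter sequences were examined because several of these genes moved together in WT livers. RefSeq promoter windows of the mouse build GRCm38.p6, from 250 bases before to 50 bases after each start site, were found for 9 of the 10 genes (12 windows). The direct repeat, AGGTCA and then AGGTCA again on the same strand with any single base between them, was searched on both strands with at most 2 mismatches over its 12 fixed letters. It occurred in 1 of the 12 windows, that of Plin2, and in 3.86% of 32851 mouse windows. The exact half-site AGGTCA occurred on either strand in 3 of the 12 windows (1 of Plin2 and both of Plin5), against 16.3% of all windows, and the half-site of Plin2 is the end of its repeat match. The windows of Plin2 (chr4:86670010-86670309), Plin5 (chr17:56117499-56117798), Mgll (chr6:88724162-88724461) and Cidec (chr6:113435711-113436010) are shown: Plin2 and Plin5 for the repeat or half-site, and Mgll and Cidec as examples of genes that rose in WT livers without either. Plin2, Plin5 and Cidec lie on the minus strand and Mgll on the plus strand. Capitals mark the repeat match in Plin2, which starts at position -225 from the start site, on the opposite strand and with 2 mismatches, and the half-site in Plin5.
Plin2: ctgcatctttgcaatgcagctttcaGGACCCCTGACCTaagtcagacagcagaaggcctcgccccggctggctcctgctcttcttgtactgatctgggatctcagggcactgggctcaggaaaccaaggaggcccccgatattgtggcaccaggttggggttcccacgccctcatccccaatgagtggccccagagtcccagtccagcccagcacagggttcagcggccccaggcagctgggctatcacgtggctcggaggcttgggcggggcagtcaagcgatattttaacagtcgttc
Plin5: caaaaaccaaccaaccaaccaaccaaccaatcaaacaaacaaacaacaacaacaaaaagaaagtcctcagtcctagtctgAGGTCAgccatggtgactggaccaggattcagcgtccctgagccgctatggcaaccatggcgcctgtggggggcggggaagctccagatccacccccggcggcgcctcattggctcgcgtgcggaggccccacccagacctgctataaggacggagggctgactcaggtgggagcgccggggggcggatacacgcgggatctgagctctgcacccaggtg
Mgll: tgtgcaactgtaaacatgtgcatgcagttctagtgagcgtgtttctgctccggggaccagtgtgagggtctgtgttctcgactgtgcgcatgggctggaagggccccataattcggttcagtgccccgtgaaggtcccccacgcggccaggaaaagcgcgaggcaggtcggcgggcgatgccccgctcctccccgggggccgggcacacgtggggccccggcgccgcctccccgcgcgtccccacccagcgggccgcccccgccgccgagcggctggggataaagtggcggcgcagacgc
Cidec: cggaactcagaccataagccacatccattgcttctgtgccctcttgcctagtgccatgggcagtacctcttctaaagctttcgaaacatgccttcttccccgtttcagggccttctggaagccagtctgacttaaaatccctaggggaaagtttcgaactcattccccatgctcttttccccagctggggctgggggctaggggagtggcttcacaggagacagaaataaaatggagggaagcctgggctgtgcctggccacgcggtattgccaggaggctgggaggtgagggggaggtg
The Mgll and Cidec windows shown hold neither motif, which says only that these letters are not in these windows. A match describes the sequence and is not evidence of a bound site.

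Before the comparisons, the arrays were checked against their labels, and 2 of the 5 arrays labelled WT 0 mg/kg, replicates 4 and 5, went against theirs. On 22 probe sets that separated the genotypes in the other arrays, every value of this pair (100%) was on the side of the Null arrays. The share on that side was 100% in the 15 Null arrays and 0 to 16.7% in the remaining 13 WT arrays. Their Ppara level was 8.66 and 8.74, where the Null arrays ranged from 8.78 to 9.81 and WT control replicates 1 to 3 from 10.33 to 10.62. The dose label is in doubt as well: Cyp2b10, a cytochrome P450 gene induced by xenobiotics, stood at 12.80 and 12.93 in the pair. It ranged from 10.47 to 13.19 in the 20 dosed arrays, against 6.78 to 9.06 in Null controls and 7.81 to 8.20 in WT control replicates 1 to 3. Calls that rest on WT controls are therefore given with all 5 and with 3 control arrays. The tissue label matched its markers: all 8 hepatocyte markers were kept, with a mean log2 level of 13.06 to 13.55 per array. Of 9 annotated adipocyte markers, 7 passed the filter: Retn (6.22 to 6.78), Fabp4 (6.50 to 8.14), Slc2a4 (6.71 to 7.22), Cd36, Lipe, Pck1 and Car3. Adipoq (2.87 to 3.56) and Lep (3.22 to 3.94) did not pass. Of 6 brown adipocyte markers 1 passed, Elovl3, and Ucp1 (4.11 to 4.84) did not. The share of fat cells in the samples was not tested.

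**Figure D1:**
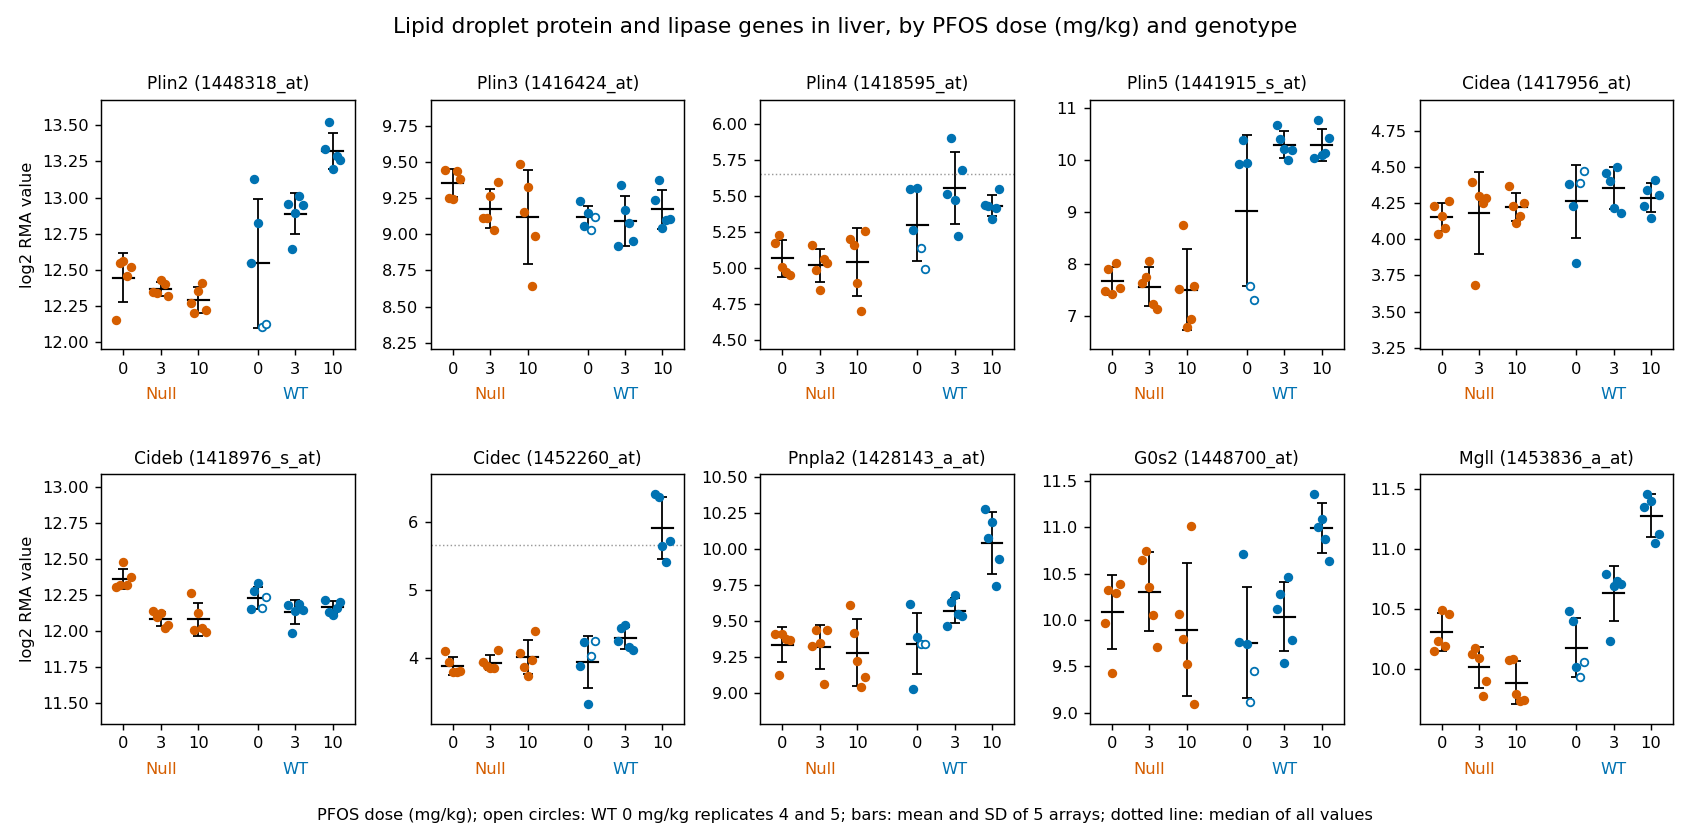
Log2 RMA value of each array (points) for the 10 genes, by PFOS dose in mg/kg and genotype (Null orange, WT blue), with the mean and SD of 5 arrays (bars). Open circles are WT 0 mg/kg replicates 4 and 5, and the dotted line is the median of all values; Plin2, Pnpla2, G0s2, Mgll and Cidec stood highest in WT livers at 10 mg/kg, and Plin5 was low in all Null arrays and in the open circles.

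With 10 mg/kg PFOS, 0 of the 7 tested genes rose in Null livers and 4 rose in WT livers. In Null livers, 10 against 0 mg/kg, 2 genes fell (Cideb and Mgll), where 4.96% of all 12156 genes fell and 4.14% rose by limma with Benjamini-Hochberg adjustment. In WT livers the genes that rose were Mgll, G0s2, Plin2 and Pnpla2, by 1.62- to 2.35-fold, and 0 fell, where 7.53% of all genes rose, 5.54% fell and 13.1% changed in either direction. For 3 of the 7 (Mgll, Plin2 and Pnpla2) all 5 WT arrays at 10 mg/kg lay above all 5 WT controls, as for 5.82% of all genes. The same 4 genes rose when WT control replicates 4 and 5 were left out, where 13.8% of all genes rose and 14.3% fell. The median log2 change of the 7 genes was -0.18 in Null livers and 0.78 in WT livers, beside 0.00 for all genes tested in each.

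Plin2, the main perilipin of hepatocyte droplets, rose in WT livers with 10 mg/kg. In Null livers its probe set (1448318_at, gene at chr4:86626910-86670217) read 12.15, 12.55, 12.56, 12.45 and 12.52 at 0 mg/kg, 12.34, 12.34, 12.43, 12.40 and 12.32 at 3 mg/kg, and 12.27, 12.20, 12.35, 12.41 and 12.22 at 10 mg/kg. The WT arrays read 12.54, 13.13, 12.82, 12.10 and 12.13 at 0 mg/kg, 12.96, 12.64, 12.89, 13.01 and 12.95 at 3 mg/kg, and 13.34, 13.53, 13.20, 13.29 and 13.26 at 10 mg/kg. Every WT array at 10 mg/kg lay above every other array of the series, and the lowest WT controls were the doubted pair. The change at 10 against 0 mg/kg was -0.15 on the log2 scale in Null livers (95% interval -0.32 to 0.02, adjusted p = 0.274). The WT change was 0.78 (SE 0.16, 1.71-fold, limma adjusted p = 0.00798) with all controls and 0.49 (SE 0.12, adjusted p = 0.0106) without that pair. The difference in response, the Null change minus the WT change, was -0.93 (SE 0.18, adjusted p = 0.00681), and -0.64 (adjusted p = 0.0141) without the doubted pair. Plin2 is the gene whose promoter window holds the repeat printed above.

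Plin3, a perilipin that exchanges between the cytosol and droplets, showed no called change. Its groups averaged 9.35 ± 0.10, 9.18 ± 0.13 and 9.12 ± 0.33 in Null livers at 0, 3 and 10 mg/kg, and 9.12 ± 0.08, 9.09 ± 0.17 and 9.17 ± 0.14 in WT livers (SD, n = 5 each). The change at 10 against 0 mg/kg was -0.23 in Null livers (95% interval -0.50 to 0.03) and 0.06 in WT livers (-0.13 to 0.24).

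Plin4, a perilipin known mainly from adipocytes and muscle, was at the low end of the array. It averaged 5.07 ± 0.13, 5.02 ± 0.11 and 5.04 ± 0.23 in Null livers at 0, 3 and 10 mg/kg, and 5.30 ± 0.25, 5.56 ± 0.25 and 5.43 ± 0.07 in WT livers (SD, n = 5 each). It was not called in any dose comparison of the fit without the filter. The difference of Null and WT livers was -0.54 at 3 mg/kg (SE 0.12, adjusted p = 0.0061) and -0.39 at 10 mg/kg (adjusted p = 0.0421), where 2.30% and 3.17% of all 45037 probe sets were lower in Null livers. At both of these doses the 5 Null arrays lay below the 5 WT arrays.

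Plin5, a perilipin of oxidative tissues that tethers droplets to mitochondria, differed between the genotypes more than any other of the 7 tested genes. In Null livers its probe set 1441915_s_at (gene at chr17:56111597-56117606) read 7.49, 7.91, 7.43, 8.03 and 7.54 at 0 mg/kg, 7.63, 7.75, 8.06, 7.24 and 7.15 at 3 mg/kg, and 7.52, 8.74, 6.79, 6.94 and 7.58 at 10 mg/kg. In WT livers it read 9.91, 10.38, 9.93, 7.59 and 7.32 at 0 mg/kg, 10.67, 10.40, 10.21, 10.00 and 10.18 at 3 mg/kg, and 10.04, 10.77, 10.09, 10.13 and 10.42 at 10 mg/kg. All 15 Null arrays lay below 13 of the WT arrays, and the other 2 WT arrays, control replicates 4 and 5, lay within the Null range. The Null minus WT difference of Plin5 was -2.72 at 3 mg/kg (SE 0.42, 6.60-fold lower, adjusted p = 0.000124) and -2.78 at 10 mg/kg (6.87-fold lower, adjusted p = 3.81e-05). At 0 mg/kg the difference was -1.35 (adjusted p = 0.102) with all controls and -2.39 (SE 0.29, adjusted p = 7.83e-06) without the doubted pair. Its second probe set, 1424937_at, moved in parallel (Pearson r = 0.996 over 30 arrays, a description) and differed by -2.85 at 10 mg/kg.

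PFOS itself had no called effect on Plin5 in either genotype. The change at 10 against 0 mg/kg was -0.17 in Null livers (95% interval -0.77 to 0.44). In WT livers it was 1.27 (SE 0.48, adjusted p = 0.0986) with all controls, and 0.22 (SE 0.18, adjusted p = 0.406) without the pair. Plin4 and Plin5 are neighbours on chromosome 17 and Plin3 lies on the same chromosome. Plin3 was not called between Null and WT livers at 10 mg/kg (-0.05, 95% interval -0.28 to 0.17). Nor was it called at 0 mg/kg, where its interval lay above 0 with all controls (0.235, 95% interval 0.01 to 0.46, limma adjusted p = 0.300). Without the pair that interval was -0.06 to 0.475.

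Cidec, which builds large droplets by fusing smaller ones and is best known from white adipocytes, lay below the median of all values in all but 3 arrays, and rose in WT livers at 10 mg/kg. Probe set 1452260_at (gene at chr6:113424634-113435760) read, in Null livers, 4.09, 3.94, 3.79, 3.78 and 3.80 at 0 mg/kg, 3.94, 3.88, 3.85, 3.84 and 4.12 at 3 mg/kg, and 4.08, 3.87, 3.73, 3.97 and 4.39 at 10 mg/kg. The WT arrays read 3.87, 4.23, 3.32, 4.02 and 4.25 at 0 mg/kg, 4.24, 4.44, 4.48, 4.16 and 4.12 at 3 mg/kg, and 6.41, 6.36, 5.65, 5.40 and 5.72 at 10 mg/kg. The 5 WT arrays at 10 mg/kg stood apart from the other 25. In the fit without the filter the change at 10 against 0 mg/kg was 0.13 in Null livers (95% interval -0.10 to 0.35) and 1.97 in WT livers (SE 0.19, 3.92-fold, adjusted p = 1.31e-05), where 2.49% of 45037 probe sets rose in WT livers. Without the doubted control pair the WT change was 2.10 (adjusted p = 2.81e-05). The WT control values lay below the filter level, so this fold may understate the change and is not ranked against those of the other genes. The difference in response, Null minus WT, was -1.84 (SE 0.23, adjusted p = 2.53e-05), and -1.98 without the pair (adjusted p = 3.31e-05), a comparison in which 0.848% of probe sets were lower.

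The WT increase of Cidec lay between the upper doses. Cidec rose in WT livers at 10 against 3 mg/kg by 1.62 (adjusted p = 0.000555, beside 1.23% of probe sets that rose), while the change at 3 against 0 mg/kg was 0.35 (SE 0.19, adjusted p = 1.00), and 0.48 without the pair (adjusted p = 0.581).

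Cideb, the Cide protein of hepatocytes, which takes part in lipid loading of very-low-density lipoproteins, was the member that fell in Null livers at both doses. Its probe set 1418976_s_at (gene at chr14:55754052-55758424) read 12.30, 12.32, 12.48, 12.32 and 12.38 in Null livers at 0 mg/kg, 12.14, 12.10, 12.12, 12.02 and 12.04 at 3 mg/kg, and 12.26, 12.01, 12.12, 12.02 and 11.99 at 10 mg/kg. In WT livers its 15 arrays lay between 11.99 and 12.33. All Null arrays at each dose lay below all Null controls, by a small distance. Relative to controls, Cideb fell by 0.28 in Null livers at 3 mg/kg (SE 0.07, 1.21-fold, adjusted p = 0.0334). At 10 mg/kg it also fell by 0.28 (SE 0.07), with adjusted p = 0.0211. At 3 mg/kg the call was lost when any of 8 single arrays was left out, and at 10 mg/kg when Null 0 mg/kg replicate 3, Null 10 mg/kg replicate 2 or replicate 5 was left out. The difference in response between Null and WT livers at 10 mg/kg was -0.21 (SE 0.08, adjusted p = 0.168), and -0.19 without the doubted pair (adjusted p = 0.243), so the responses were not shown to differ.

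Cidea, a droplet-fusing protein of brown fat, lay at 3.69 to 4.50 in all 30 arrays, below the median of all values. Its change at 10 against 0 mg/kg was 0.07 in Null livers (95% interval -0.16 to 0.30) and 0.03 in WT livers (-0.20 to 0.25).

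**Figure D2:**
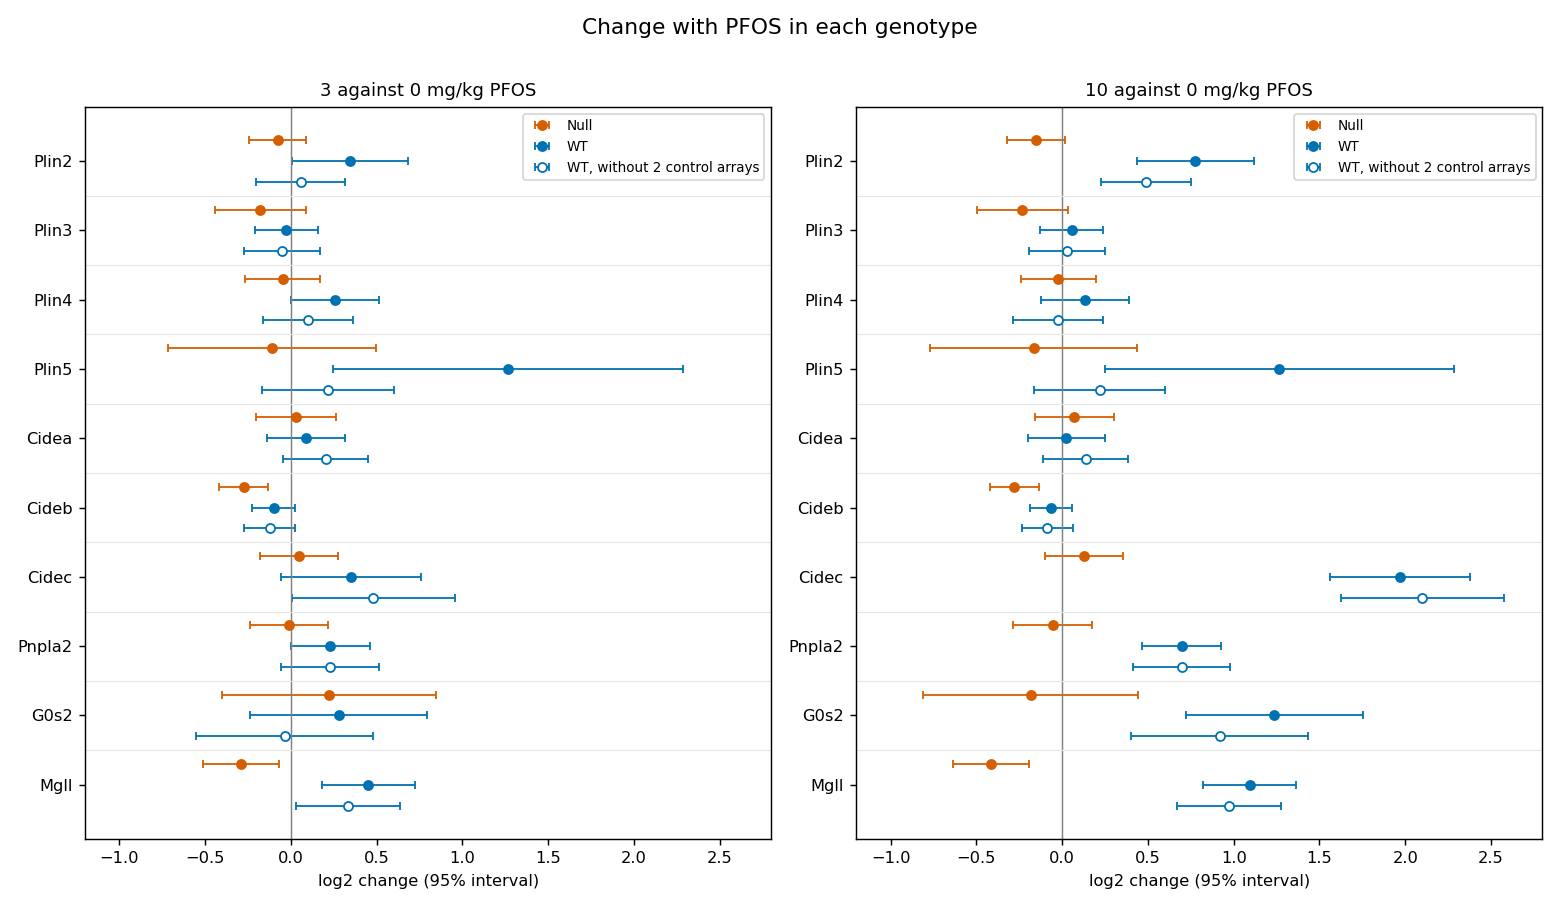
Log2 change at 3 (left) and 10 mg/kg (right) against 0 mg/kg with its 95% interval, for each gene in Null (orange) and WT livers (blue), and in WT livers without control replicates 4 and 5 (open). At 10 mg/kg the WT intervals of Plin2, Cidec, Pnpla2, G0s2 and Mgll lay above 0 with and without these controls, and that of Plin5 did so only with them.

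Pnpla2, the lipase that starts the breakdown of stored triglyceride, rose in WT livers. The 15 Null arrays lay between 9.04 and 9.61 on its probe set 1428143_a_at (gene at chr7:141455188-141460743), with means of 9.34, 9.32 and 9.28 at 0, 3 and 10 mg/kg. In WT livers it read 9.62, 9.03, 9.39, 9.34 and 9.34 at 0 mg/kg, 9.47, 9.63, 9.68, 9.55 and 9.54 at 3 mg/kg, and 10.28, 10.08, 10.19, 9.74 and 9.93 at 10 mg/kg. The WT arrays at 10 mg/kg did not overlap those at either lower dose. The change at 10 against 0 mg/kg was -0.06 in Null livers (95% interval -0.28 to 0.17). In WT livers Pnpla2 rose by 0.70 (SE 0.11, 1.62-fold, adjusted p = 0.00111), and by 0.70 without the doubted controls. Null minus WT, the responses differed by -0.75 (SE 0.16, adjusted p = 0.0086), and by -0.75 without the pair (adjusted p = 0.017). A second Pnpla2 probe set, 1428591_at, lay at 3.69 to 4.62 in all arrays, did not pass the filter, and had a WT change of 0.08 (adjusted p = 0.807).

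G0s2, which binds Pnpla2 and blocks its activity, rose together with it in WT livers but scattered more. Probe set 1448700_at (gene at chr1:193272160-193273188) read, in Null livers, 9.97, 10.33, 9.43, 10.30 and 10.39 at 0 mg/kg, 10.65, 10.75, 10.35, 10.06 and 9.71 at 3 mg/kg, and 10.06, 9.80, 9.53, 11.01 and 9.09 at 10 mg/kg. The 15 WT arrays gave 9.76, 10.71, 9.74, 9.12 and 9.45 at 0 mg/kg, 10.12, 10.28, 9.54, 10.46 and 9.78 at 3 mg/kg, and 11.36, 11.00, 11.09, 10.88 and 10.63 at 10 mg/kg. WT arrays at 10 mg/kg overlapped the WT controls through control replicate 2, and a single Null array at 10 mg/kg, replicate 4, lay within their range. The change at 10 against 0 mg/kg was -0.18 in Null livers (95% interval -0.81 to 0.44). The WT change was 1.24 (SE 0.24, 2.35-fold, adjusted p = 0.00585), and 0.92 (SE 0.24, adjusted p = 0.0138) without the doubted pair. Null minus WT, the difference of -1.42 in response (SE 0.41) missed the threshold (adjusted p = 0.0511), and was -1.10 (adjusted p = 0.134) without the pair.

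Mgll, which completes lipolysis and also degrades the endocannabinoid 2-arachidonoylglycerol, was the member with the lowest adjusted p of the 7 tested genes in WT livers at 10 mg/kg. Probe set 1453836_a_at (gene at chr6:88724412-88828360) read, in Null livers, 10.15, 10.23, 10.49, 10.20 and 10.46 at 0 mg/kg, 10.13, 10.18, 10.10, 9.78 and 9.90 at 3 mg/kg, and 10.08, 10.09, 9.79, 9.74 and 9.75 at 10 mg/kg. Readings in WT livers were 10.48, 10.40, 10.02, 9.94 and 10.06 at 0 mg/kg, 10.79, 10.23, 10.69, 10.74 and 10.71 at 3 mg/kg, and 11.35, 11.46, 11.39, 11.05 and 11.12 at 10 mg/kg. On this probe set the 2 genotypes thus ran opposite ways. All Null arrays at 10 mg/kg lay below all Null controls, and all WT arrays at 10 mg/kg lay above all WT controls. Mgll fell by 0.42 in Null livers (SE 0.11, 1.34-fold, adjusted p = 0.0245) and rose by 1.09 in WT livers (SE 0.13, 2.13-fold, adjusted p = 7.61e-05), or by 0.97 without the doubted controls (adjusted p = 0.000379). The call in Null livers was lost without any of 4 arrays: Null 0 mg/kg replicate 3 or 5, or Null 10 mg/kg replicate 4 or 5. Null minus WT, the responses differed by -1.51 (SE 0.17, adjusted p = 3.83e-06), and -1.39 (adjusted p = 3.72e-05) without the doubted controls. At 3 mg/kg this difference was -0.74 (SE 0.17, adjusted p = 0.032), and this call was lost without the pair (-0.62, adjusted p = 0.116) and when any of 14 single arrays was left out.

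Mgll has 4 probe sets on the array, and they did not all read alike. The 3 with strong signal moved together, with Pearson r of 0.958 to 0.981 over 30 arrays as a description. At 10 against 0 mg/kg in Null livers the changes were -0.42 (1453836_a_at) and -0.47 (1426785_s_at), both called, and -0.25 (1450391_a_at, adjusted p = 0.26). On 1426785_s_at and 1450391_a_at, the Null arrays at 10 mg/kg overlapped the Null controls. In WT livers all 3 rose, by 0.96 to 1.10. The difference in response at 3 mg/kg was called on 1453836_a_at alone. It was -0.63 on 1426785_s_at (limma adjusted p = 0.0879) and -0.53 on 1450391_a_at (adjusted p = 0.156). Null against WT at 3 mg/kg was called on 1426785_s_at as well (-0.51, adjusted p = 0.0135), and not on 1450391_a_at (-0.325, adjusted p = 0.110). The fourth, 1431331_at, lay at 5.66 to 6.11 near the median of all values, and showed a WT change of -0.12 (adjusted p = 0.418).

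**Figure D3:**
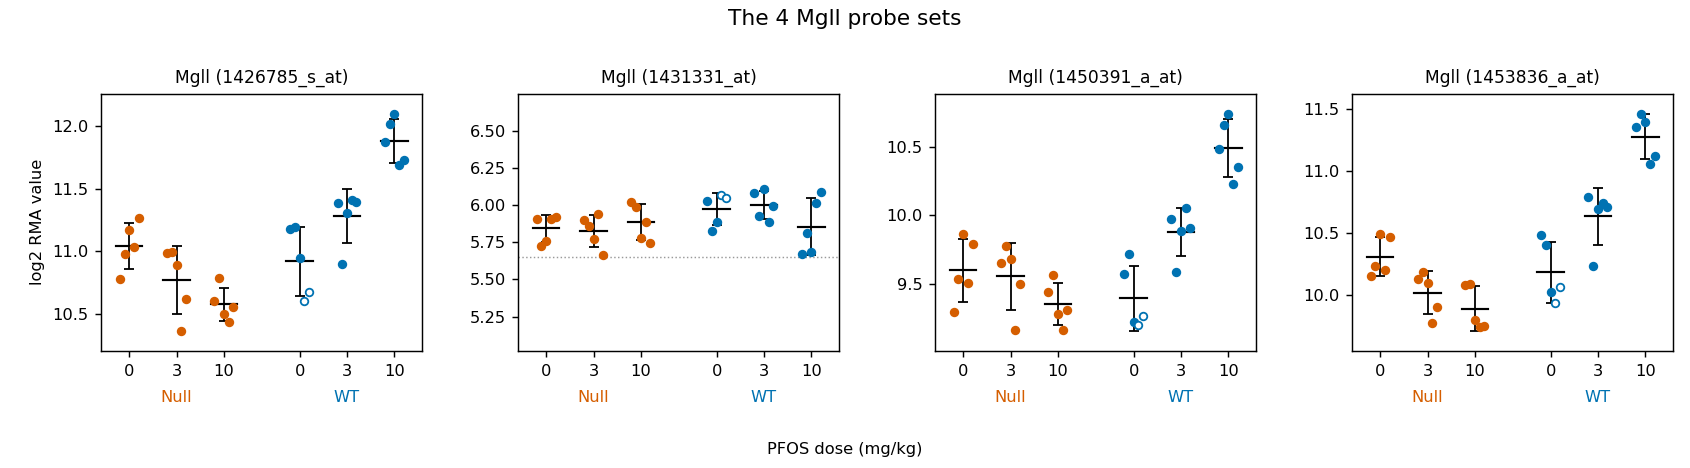
Log2 RMA value of each array for the 4 Mgll probe sets, by PFOS dose in mg/kg and genotype (Null orange, WT blue; mean and SD of 5 arrays; open circles, WT 0 mg/kg replicates 4 and 5). The 3 probe sets with strong signal were highest in WT livers at 10 mg/kg, while 1431331_at stayed between 5.66 and 6.11 throughout.

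The lower dose gave fewer calls among these genes. Of the 7 genes, 1 fell in Null livers at 3 against 0 mg/kg (Cideb), beside 3.13% of all genes. Between 10 and 3 mg/kg in Null livers, limma called 0 of the 7 genes and 0% of all genes, 0 of the 7 had an unadjusted p below 0.05 (10.7% of all genes did), and the methods' t-test, a pairwise test of dose means within a genotype, called 0 at the study's unadjusted threshold and 0 after Benjamini-Hochberg adjustment.

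For WT livers at 3 against 0 mg/kg, 0 of the 7 genes were called by limma, where 0.247% of all genes were, 3 had an unadjusted p below 0.05 (Mgll, Plin5 and Plin2) as did 6.61% of all genes, and the methods' t-test called 0 in both forms. The Mgll change at this dose was 0.45 (SE 0.13, adjusted p = 0.437), and 0.33 without the doubted pair (adjusted p = 0.406), and that of Plin2 was 0.35 with all controls and 0.06 without the doubted pair. At 10 against 3 mg/kg, a comparison that does not use the WT controls' values, 3 of the 7 genes rose (Mgll by 0.64, G0s2 by 0.96 and Pnpla2 by 0.47), beside 3.77% of all genes. The call of G0s2 was lost when any of 7 of the 15 WT arrays was left out and that of Pnpla2 with any of 5, so that Mgll alone was called without WT 3 mg/kg replicate 1, 2 or 5 or WT 10 mg/kg replicate 1 or 2. When the doubted pair did not enter the estimate of the spread, 4 of the 7 genes rose, beside 7.34% of all genes. The gene added was Plin2, which was 0.43 higher at 10 than at 3 mg/kg (adjusted p = 0.109 with all arrays and 0.0197 without the pair). Each of these 4 genes read higher in all 5 WT arrays at 10 mg/kg than in all 5 at 3 mg/kg, as did 6.79% of all genes.

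More of the members differed between the genotypes at the higher doses. At 0 mg/kg limma called 0 of the 7 genes in Null against WT livers (1.58% of all genes), 3 had an unadjusted p below 0.05 (Plin5, Cideb and Plin3) as did 17.0% of all genes, and an unmoderated test of the same contrast, which the study's methods do not include, called 0 after Benjamini-Hochberg adjustment. Without the doubted controls 1 gene was lower in Null livers (Plin5), beside 1.10% of all genes. At 3 mg/kg, 3 genes were lower in Null livers (Plin5 at -2.72, Mgll at -0.62 and Plin2 at -0.52, Null minus WT), beside 5.09% of all genes. At 10 mg/kg, 5 were lower (Plin5 at -2.78, Mgll at -1.39, G0s2 at -1.10, Plin2 at -1.03 and Pnpla2 at -0.76), beside 7.83% of all genes. Cidec was lower by 1.90 at this dose in the fit without the filter (adjusted p = 2.51e-09). Neither Plin3 nor Cideb was called between genotypes at any dose. In the direct test of the difference in response, 3 of the 7 genes were called at 10 mg/kg (Mgll, Plin2 and Pnpla2, all lower in Null livers, beside 3.03% of all genes) and Mgll alone at 3 mg/kg (0.995%). Without the doubted pair the same 3 were called at 10 mg/kg (3.66% of all genes) and 0 at 3 mg/kg (0.197%).

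**Figure D4:**
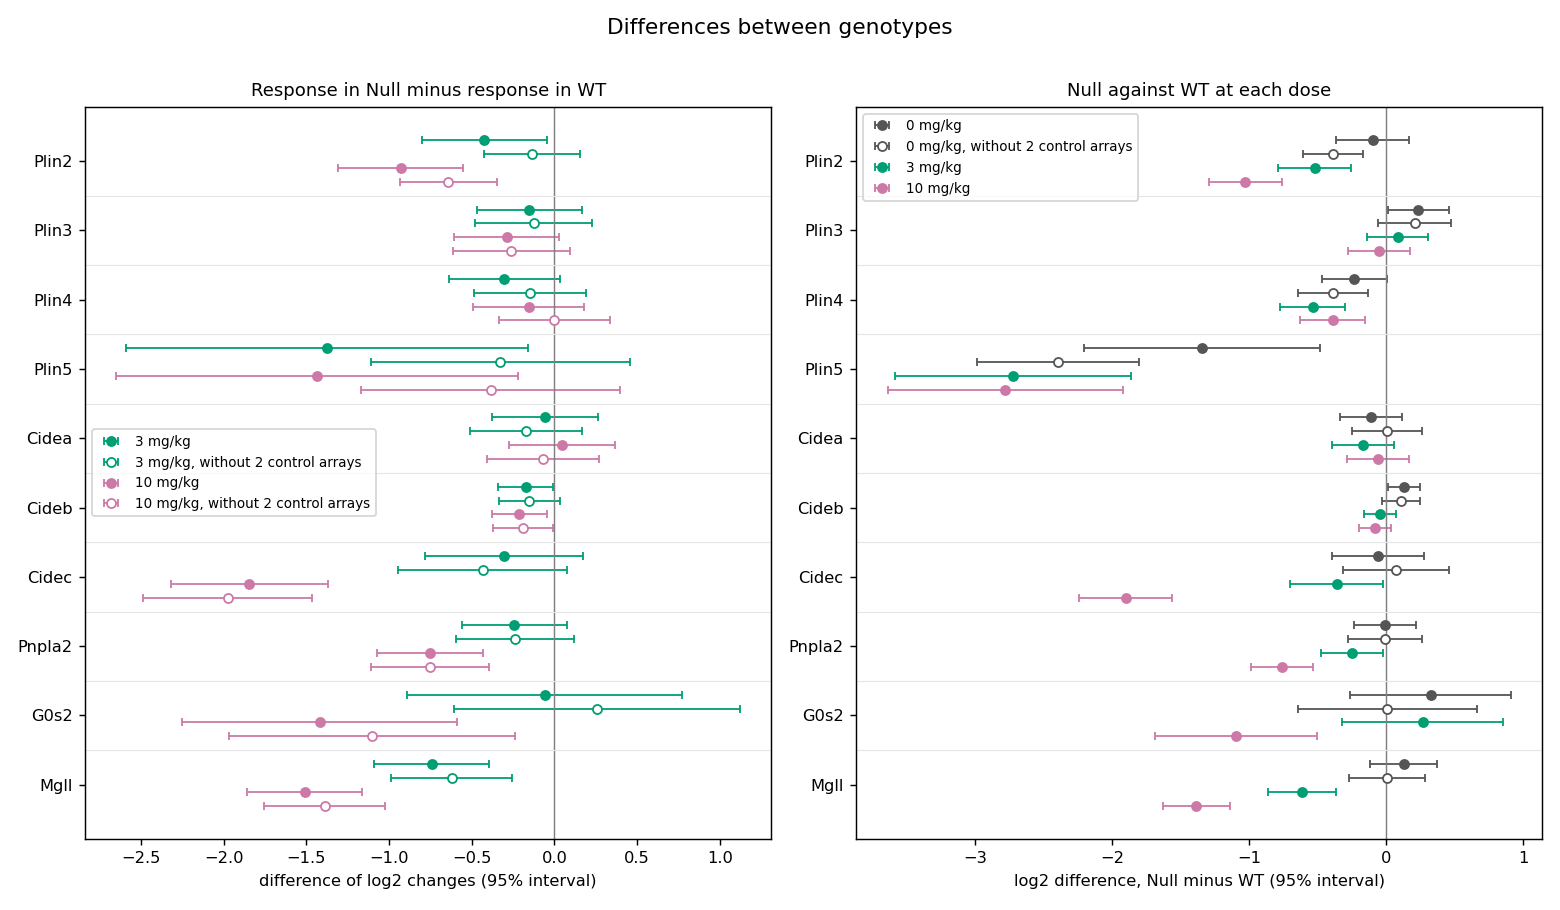
Left, the log2 change with PFOS in Null livers minus that in WT livers at 3 and 10 mg/kg. Right, the log2 difference of Null and WT livers at each dose; points are estimates with 95% intervals and open points leave out WT control replicates 4 and 5. Plin5 stood near -2.4 at 0 mg/kg without these controls and at -2.72 and -2.78 at 3 and 10 mg/kg, whereas Plin2, Cidec, Pnpla2, G0s2 and Mgll differed most at 10 mg/kg.

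Other lipid droplet proteins came from a list of 20, of which 17 were tested. In Null livers at 10 mg/kg, 2 rose and 0 fell, beside 4.14% and 4.96% of all genes: Nsdhl, an enzyme of cholesterol synthesis, by 0.58 and Mettl7b by 0.32. In WT livers at 10 mg/kg, 5 rose and 0 fell, beside 7.53% and 5.54% of all genes: Fitm1 by 2.14 (SE 0.28) and Fitm2 by 0.86, which help droplets form at the endoplasmic reticulum, Hsd17b11, a dehydrogenase on droplets, by 1.96, Acsl3, a fatty acid activating enzyme, by 0.76, and Mettl7b by 0.31. Without the doubted pair the same 5 rose (13.8% of all genes), Fitm1 by 1.69, and 2 fell (14.3%): Rab7, a small GTPase of late endosomes, at -0.24 (adjusted p = 0.0214) and Ldah, a droplet-associated hydrolase, at -0.29 (adjusted p = 0.0357). The median WT change of the 17 was 0.06. At 3 against 0 mg/kg in WT livers 1 of the 17 rose and 0 fell, beside 0.247% of all genes called. This was Hsd17b11, by 1.28 (limma adjusted p = 0.0029), and by 1.01 without the doubted pair (adjusted p = 0.00423). The difference in response at 10 mg/kg, Null minus WT, was -2.11 for Fitm1, -1.84 for Hsd17b11 and -0.59 for Fitm2, the genes of this list called there with all controls (3 lower and 0 higher, beside 3.03% and 0.749% of all genes). Without the doubted pair Fitm2 was not called (adjusted p = 0.063), and Rab7 was, at 0.30 (adjusted p = 0.0307), where 1.56% of all genes were higher.

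Other lipases and lipolysis regulators came from a list of 20, of which 18 were tested. With 10 mg/kg in Null livers 1 rose and 2 fell, beside 4.14% and 4.96% of all genes. The carboxylesterase Ces1d rose by 0.93, while Prkaca, the catalytic subunit of protein kinase A, changed by -0.46 and the lysophospholipase Pnpla7 by -0.47. In WT livers 5 rose and 0 fell, beside 7.53% and 5.54% of all genes. These were Ces1d (by 1.00), the monoacylglycerol lipase Abhd6 (by 0.97), the phospholipase and lipase Ddhd2 (by 0.85), hormone-sensitive lipase Lipe (by 0.57) and lysosomal acid lipase Lipa (by 0.44). Without the doubted pair 7 rose (13.8% of all genes) and 0 fell (14.3%), the genes added being Abhd5 and Pnpla3. Abhd5, the coactivator of Pnpla2, changed by 0.32 with all controls (adjusted p = 0.11) and by 0.56 without the pair (adjusted p = 0.000694). Pnpla3, a lipase of hepatocyte droplets, changed by 0.34 (adjusted p = 0.0555) and by 0.43 without the pair (adjusted p = 0.0158). Between the genotypes, the difference in response (Null minus WT, 10 mg/kg) was called lower for 2 and higher for 1, beside 3.03% and 0.749% of all genes. It was -1.15 for Abhd6 and -0.87 for Ddhd2. For Faah, which degrades the endocannabinoid anandamide, it was 0.42, a call lost without the pair (adjusted p = 0.0704). Abhd5 was called there only without the pair (-0.45, adjusted p = 0.0438), where 3 of the list were lower and 0 higher, beside 3.66% and 1.56% of all genes.

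**Figure D5:**
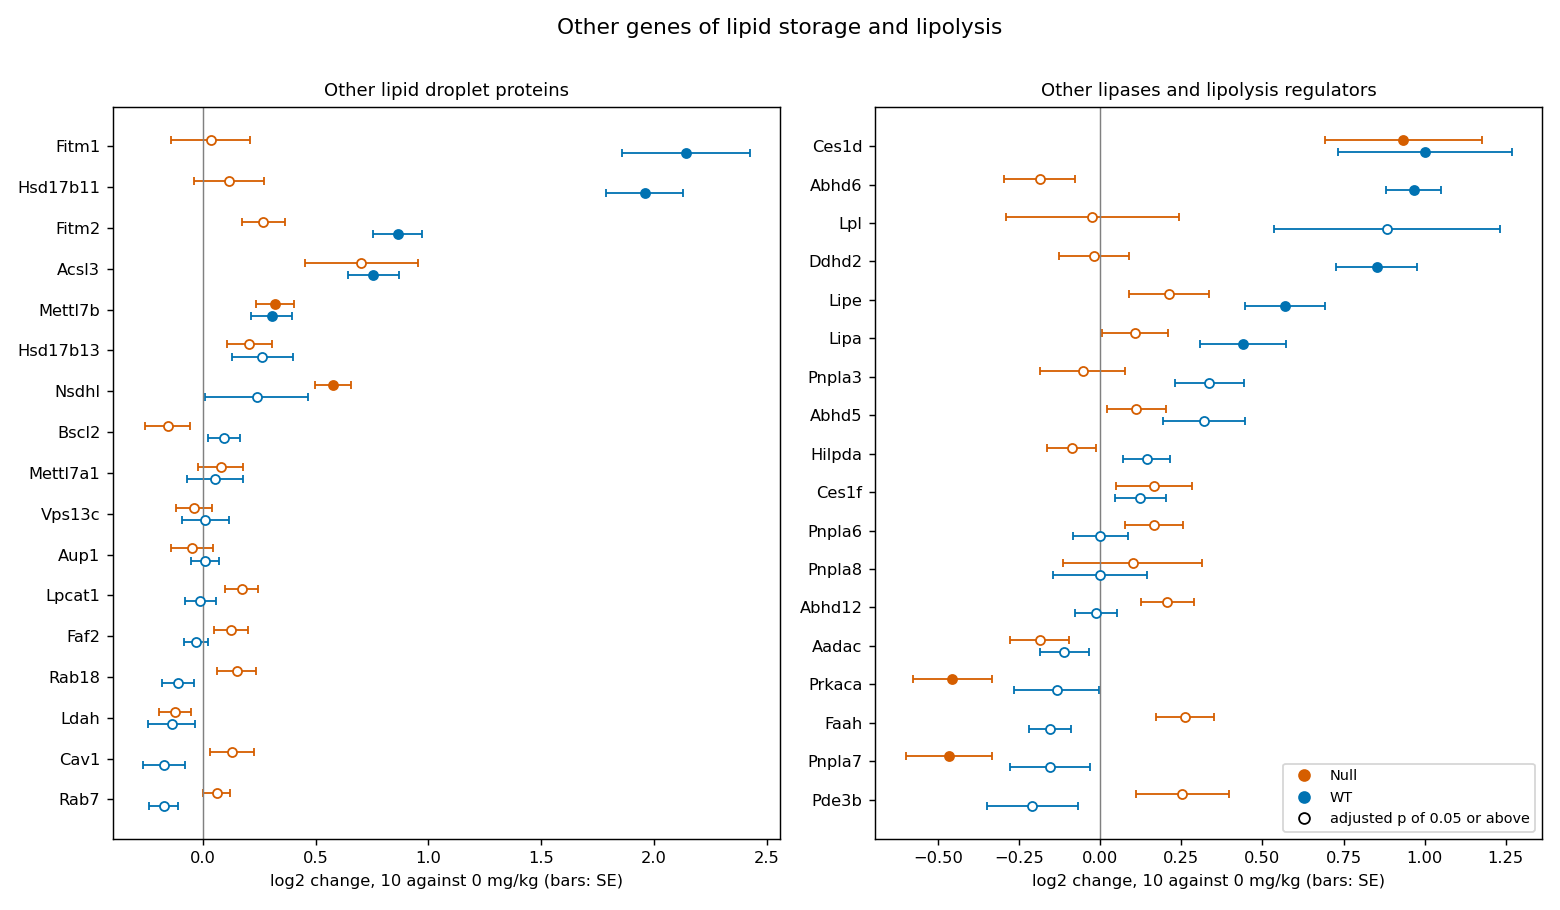
Log2 change at 10 against 0 mg/kg with its SE for the 17 other lipid droplet proteins (left) and the 18 other lipases and lipolysis regulators (right) in Null (orange) and WT livers (blue), with open points where the adjusted p was 0.05 or above. Fitm1 and Hsd17b11 rose by about 2 on the log2 scale in WT livers alone by this test, whereas Ces1d rose in both genotypes.

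Among 14 transcription regulators of lipid storage and use, all tested, 2 rose and 0 fell in Null livers at 10 mg/kg, beside 4.14% and 4.96% of all genes. Those that rose were Creb3l3, a liver factor of fasting lipid metabolism, by 0.48 and Srebf1, a factor of fatty acid synthesis, by 0.51. In WT livers 1 rose (Creb3l3, by 0.35) and 2 fell, beside 7.53% and 5.54% of all genes: Ppargc1a, a coactivator of oxidative metabolism, changed by -1.01 and Mlxipl, the carbohydrate response factor, by -0.62. Without the doubted pair 2 rose (13.8% of all genes), with Pparg added, and 5 fell (14.3%), with Foxo1 (-0.50), Cebpa (-0.31) and Rxra (-0.35) added, the last of these the partner of PPARα on DNA. Pparg, the nuclear receptor that drives Cidec in adipocytes, changed by 0.58 in WT livers (adjusted p = 0.226) with all controls and rose by 1.19 (adjusted p = 0.000283) without the doubted pair. Pparg was higher in Null than in WT livers at 3 mg/kg, by 1.18 (SE 0.26, adjusted p = 0.00465). The Cidec difference at this dose, where all its values lay below the filter level, was -0.36 (95% interval -0.70 to -0.03, adjusted p = 0.216). A link of Pparg to Cidec was not tested.

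Levels of other cell types' markers were read beside these changes. The mean log2 level of the 9 annotated adipocyte markers was 7.94 to 8.05 per array in WT livers at 10 mg/kg, against 7.59 to 7.88 at 0 mg/kg. This mean includes Adipoq and Lep, which lay below the filter level throughout. It also includes Pck1 and Car3, which stood far higher than the other markers, and Lipe, called higher in WT livers at 10 mg/kg. Which markers moved the mean was not tested, so it is not read as a level of fat cells. The 8 hepatocyte markers stood at 13.06 to 13.24 in WT livers at 10 mg/kg, against 13.33 to 13.48 at 0 mg/kg. The 8 macrophage markers ranged from 7.86 to 8.70, against 8.19 to 9.31, and the part of these shifts in the results was not tested.

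For each member called in a dose comparison, the genes with the closest pattern over the 30 arrays were listed as a description, since all arrays share the dose and genotype groups. Mgll ran closest to Pex11a, a peroxisome division gene (Pearson r = 0.929), Acot8, a peroxisomal thioesterase (0.923), and Abhd6 (0.921). Plin2 ran closest to Zc3h13 (0.941), Chrna2 (0.926) and Qpct (0.913), and Pnpla2 to 5031439G07Rik (0.897), Slc25a10, a mitochondrial dicarboxylate carrier (0.892), and Rtf2 (0.879). Cideb ran closest to Psenen (0.841), Med28 (0.836) and Midn (0.825). The closest genes to G0s2 were less alike: the chaperone gene Hsph1 (0.690), Thumpd3 (0.688) and the cochaperone gene Dnajb2 (0.671). Without the doubted pair, the 3 genes nearest to Mgll, Cideb and Pnpla2 were the same, 2 of 3 were the same for Plin2, and 2 of 3 for G0s2.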

How the data were processed

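Liver RNA was hybridised to 30 Affymetrix Mouse430_2 arrays, 5 per group. The authors deposited log2 values after RMA, per the labels and methods, which had already been background-corrected, quantile-normalized and summarised per probe set, so no further scaling was applied; a median between 5.60 and 5.70 per array was checked. Labels and methods gave no separate batches, so none was tested. The number of arrays limits the precision. After removal of 64 control probe sets, a probe set was kept when 5 or more of the 30 arrays exceeded the median over all values (24069 kept). Group means were fitted with limma 3.58.1 in R 4.3.3 (15 arrays of a genotype for doses, all 30 between genotypes), with Benjamini-Hochberg adjustment over all kept probe sets and calls at 0.05. A gene was read through the probe set with the smallest p for dose over all arrays. Because that choice used dose effects, every probe set of each member is described too. Each array is a separate animal per the labels and methods. The fit was tested on simulated data. Named genes were all members, the 3 closest genes per called member, and genes of fixed lists called in the comparisons described for each list. Calls of list genes in other comparisons are not all given. Members and lists were chosen with earlier results of these data known. Of the probe sets, 34945 had a single gene name through the platform annotation, 932 had several and 9160 were unnamed here. Promoters came from RefSeq, GRCm38.p6. The alternatives tried are given in the closing section.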

Additional observations from a re-analysis of the deposited data

Results flagged for a closer look

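In 66 groups of 5 arrays, a single array stood far from the other 4 in 5 cases by Dixon's test at the 95% level, where chance gives about 1 in 20. WT 3 mg/kg replicate 2 was such an array for Cideb, at 11.99 against 12.14 to 12.19 in the other 4, and for 2 probe sets of Mgll, at 10.90 against 11.31 to 11.41 (1426785_s_at) and at 10.23 against 10.69 to 10.79 (1453836_a_at). Null 0 mg/kg replicate 1 was low for Plin2, at 12.15 against 12.45 to 12.56, and Null 0 mg/kg replicate 2 was low for Pnpla2, at 9.13 against 9.37 to 9.41.

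The response to PFOS differed between Null and WT livers by limma's test of the difference for Mgll at 3 mg/kg (Null minus WT -0.74, adjusted p = 0.032). This call rested on probe set 1453836_a_at alone. Without WT 0 mg/kg replicates 4 and 5 the difference was -0.62 (adjusted p = 0.116). The call was also lost when any of 14 of the 30 single arrays was left out. At 10 mg/kg the responses differed for Mgll (-1.51, adjusted p = 3.83e-06), Plin2 (-0.93, adjusted p = 0.00681) and Pnpla2 (-0.75, adjusted p = 0.0086).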

How the results depend on the processing

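Over the 22 called gene and comparison pairs, 259 of 277 values under alternative settings kept their direction and their side of the threshold, 13 lost the call and 5 changed sign. Leaving out single arrays gave 510 values, of which 469 kept the call and 41 lost it. All 5 sign changes came from leaving out probe sets whose ID ends in _s_at, _x_at or _a_at. That setting left Mgll to its weak probe set 1431331_at and removed Pnpla2 and Cideb, so that fewer genes were tested. Mgll then changed by -0.12 (WT 10 against 0 mg/kg), -0.14 (WT 10 against 3), 0.042 (Null 10 against 0), 0.16 (difference in response, 10 mg/kg) and 0.029 (Null against WT, 10 mg/kg). The counts of called members under that setting were 2 in WT 10 against 0 mg/kg, 1 in WT 10 against 3, 0 in Null 3 against 0, 0 in Null 10 against 0, 0 and 1 in the difference in response at 3 and 10 mg/kg, and 3 in Null against WT at 10 mg/kg. Cideb, called in Null livers at both doses in the main fit, was not tested in these counts.

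For the remaining moved counts the cause was not tested. In WT 10 against 3 mg/kg the methods' t-test with Benjamini-Hochberg adjustment called 1. In Null 3 against 0 mg/kg, no filter, a shift of arrays to the same median and the replicate block gave 0 each. In the difference in response at 3 mg/kg, the count was 0 with no filter, with the probe set of highest mean, with shifted arrays, with other arrays in the fit, and without replicates 4 and 5 of WT 0 mg/kg. Array weights gave 5 in the difference in response at 10 mg/kg and 1 in Null against WT at 0 mg/kg, where leaving out the doubted pair also gave 1. Leaving out single arrays gave 1 to 3 in WT 10 against 3 mg/kg, with 1 without WT 3 mg/kg replicate 1, 2 or 5 or WT 10 mg/kg replicate 1 or 2. It gave 0 to 1 in Null 3 against 0 mg/kg, 0 to 2 in Null 10 against 0, 0 to 1 in the difference in response at 3 mg/kg (0 in 14 cases), 3 to 5 at 10 mg/kg (5 without Null 10 mg/kg replicate 1), and 0 to 1 in Null against WT at 0 mg/kg (1 without WT 0 mg/kg replicate 4 or 5). The count stayed at 4 in WT 10 against 0 mg/kg, 3 and 5 in Null against WT at 3 and 10 mg/kg, and 0 in WT 3 against 0 and Null 10 against 3.

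Deviations of same-numbered arrays correlated at 0.037 on average over 75 pairs (-0.239 to 0.357), beside -0.009 over 300 pairs with other numbers (-0.462 to 0.712). Of 30 arrays, 11 correlated best with their own number. Whether replicate numbers pair the arrays was not tested further. With the replicate block the counts were 4 in WT 10 against 0 mg/kg, 3 in WT 10 against 3, 2 in Null 10 against 0, 1 and 4 in the difference in response at 3 and 10 mg/kg, and 3 and 5 in Null against WT at 3 and 10 mg/kg. Low signal limits Plin4, Cidea and Cidec, whose values near background may understate a change, and Cidec is called only in fits without the filter.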
